A study of Mus musculus with 12 samples.

Results

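Gene deserts are long stretches of chromosome without a protein-coding gene. Here they were taken as runs of 5 or more consecutive 100-kb bins of mm10 (GRCm38) that no protein-coding gene body of the RefSeq annotation overlaps, on chromosomes 1 to 19 and within the span between the first and the last lamina-associated domain (LAD) of each chromosome. By this rule 546 deserts were found. A gene absent from the annotation table used here would lengthen a desert or create one. They hold 6116 of the 23849 bins of the span, or 611.6 of 2384.9 Mb (25.6%). Their state at the nuclear lamina was read from 4 LAD lists of preimplantation mouse embryos.

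The 4 groups were siRif1 4-cell, siControl 4-cell, siRif1 8-cell and siControl 8-cell embryos, all from (C57BL/6J xCBA) x DBA/2J crosses, with 3 replicates each. Zygotes received 20 µM of an siRNA against Rif1 or of a control siRNA 17 to 18 h after hCG. At 46 to 48 h all groups also received mRNA for a Dam-LaminB1 fusion that auxin degrades (20 ng/µL), for the auxin receptor Tir1 (250 ng/µL) and for membrane-eGFP (100 ng/µL), and were kept in 500 µM auxin until 54 h (4-cell) or 66 h (8-cell). Collection followed at 60 to 62 h for the 4-cell and 72 to 74 h for the 8-cell stage. The level of Rif1 itself cannot be read from LAD lists. Each replicate pooled 16 to 24 blastomeres from 4 to 6 embryos at the 4-cell stage or from 2 to 3 at the 8-cell stage, and each deposited list was made from all 3 replicates. Neither the spread between replicates nor the read depth can be had from such lists, so every value below is a description of 4 lists, without a p-value. Spreads over chromosomes describe chromosomes, not embryos.

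In many differentiated cells LADs are rich in A and T and poor in genes, and deserts are among the regions most often found at the lamina. Deserts often lie beside genes for neuronal adhesion molecules or for developmental transcription factors, and some hold enhancers that act over long distances. Rif1 is a chromatin protein known for setting the time at which regions replicate and for its association with late-replicating chromatin near the nuclear periphery. In DamID, the bacterial methyltransferase Dam is fused to a lamina protein and marks GATC sites that come close to the lamina.

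The deserts were not empty of annotation. At least 1 long noncoding RNA (lncRNA) gene overlapped 477 of the 546 deserts and at least 1 pseudogene overlapped 467, and 4 deserts had no annotated gene of any kind. In 3 deserts the gene-free run held antigen receptor gene segments, which RefSeq does not class as protein-coding. They include the immunoglobulin heavy chain segments between Adam6a and Zfp386 and the T cell receptor alpha segments between Gm36448 and Dad1. Deserts also hold 112 microRNA genes, 100 of them with a mature sequence in the RefSeq table used here.

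The sequences below stand for the deserts whose lamina state is followed further on. The mature microRNAs (RefSeq, GRCm38.p6) are written 5′ to 3′ with the seed, bases 2 to 8, in capitals. They come from deserts that range from LAD in none of the lists to LAD in all 4, and include 2 pairs that share a seed.
let-7c-5p: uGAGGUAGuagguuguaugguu
miR-99a-5p: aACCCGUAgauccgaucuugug
miR-100-5p: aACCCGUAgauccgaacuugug
miR-125b-5p: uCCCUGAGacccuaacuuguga
miR-9-5p: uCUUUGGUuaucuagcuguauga
miR-137-3p: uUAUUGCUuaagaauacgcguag
miR-181a-5p: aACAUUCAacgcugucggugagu
miR-181b-5p: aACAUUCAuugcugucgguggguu
miR-205-5p: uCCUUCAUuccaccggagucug
miR-379-5p: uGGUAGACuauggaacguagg
miR-344-3p: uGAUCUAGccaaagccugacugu

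Inside the long deserts themselves, sequence was available for 300-base windows around the starts of lncRNA genes (250 bases before to 50 after the start, RefSeq, GRCm38.p6). The window nearest the middle is printed for 3 deserts, with the Dam target GATC in capitals. Gm41226 lies in the longest desert, C230029F24Rik in the desert with most bins LAD in siRif1 and not in siControl 8-cell embryos, and Gm36667 in the longest desert that was LAD throughout in all 4 lists.
Gm41226, + strand, chr14:90648099-90648398: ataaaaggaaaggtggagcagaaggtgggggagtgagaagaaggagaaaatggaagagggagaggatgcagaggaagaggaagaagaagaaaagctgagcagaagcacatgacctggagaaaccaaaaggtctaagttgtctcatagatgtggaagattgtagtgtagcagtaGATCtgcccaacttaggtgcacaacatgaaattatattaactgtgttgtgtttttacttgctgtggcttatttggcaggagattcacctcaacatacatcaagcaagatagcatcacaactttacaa
C230029F24Rik, + strand, chr1:49244366-49244665: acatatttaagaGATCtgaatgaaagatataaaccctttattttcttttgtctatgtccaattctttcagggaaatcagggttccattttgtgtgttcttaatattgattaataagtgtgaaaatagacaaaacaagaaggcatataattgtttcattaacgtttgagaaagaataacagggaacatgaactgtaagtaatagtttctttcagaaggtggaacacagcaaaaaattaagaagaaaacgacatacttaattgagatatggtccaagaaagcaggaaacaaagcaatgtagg
Gm36667, - strand, chr5:133598377-133598676: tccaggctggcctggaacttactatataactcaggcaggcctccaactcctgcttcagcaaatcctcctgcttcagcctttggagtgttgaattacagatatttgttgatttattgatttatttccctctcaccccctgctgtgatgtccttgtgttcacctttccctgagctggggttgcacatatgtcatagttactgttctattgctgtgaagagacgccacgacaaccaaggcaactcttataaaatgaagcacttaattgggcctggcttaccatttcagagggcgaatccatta
The first 2 windows hold 1 GATC each and the third none.

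Over all lengths, deserts were at the lamina less often than the remaining bins in siControl 4-cell embryos. They were there more often than the remaining bins in the other 3 groups. LADs held 49.1% of the desert bins in siRif1 4-cell embryos (3003 of 6116) and 22.8% in siControl 4-cell embryos (1397). At the 8-cell stage they held 59.2% in siRif1 (3623) and 53.7% in siControl embryos (3282). Of the 17733 remaining bins, 41.6, 36.4, 37.3 and 41.6% were LAD in the same order of lists. The whole span was LAD in 43.5% of bins in siRif1 4-cell, 32.9% in siControl 4-cell, 42.9% in siRif1 8-cell and 44.7% in siControl 8-cell embryos.

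The order between deserts and the remaining bins was similar over chromosomes in 3 of the lists. Desert coverage was below that of the remaining bins on 17 of 19 chromosomes in siControl 4-cell embryos, above it on 19 of 19 in siRif1 8-cell embryos and above it on 17 of 19 in siControl 8-cell embryos. In siRif1 4-cell embryos it was above on 13 and below on 6. The mean over chromosomes was 50.8% ± 16.8 in siRif1 4-cell, 24.8% ± 9.56 in siControl 4-cell, 59.3% ± 10.6 in siRif1 8-cell and 55.7% ± 14.4 in siControl 8-cell embryos (SD, 19 chromosomes). The highest desert coverage of any chromosome in siRif1 4-cell embryos was 93.1%, on chromosome 9, and the lowest was 19.5%, on chromosome 17. In siControl 8-cell embryos chromosome 19 was highest (90.1%) and chromosome 6 lowest (33.4%).

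Short gene-free runs differed from deserts, in a way that depended on desert length. Gene-free runs of 1 to 4 bins, too short to count as deserts, were LAD in 54.6% of 2282 bins in siRif1 4-cell, 43.5% in siControl 4-cell, 49.2% in siRif1 8-cell and 57.4% in siControl 8-cell embryos. The gene-free bins inside deserts were thus 20.6 percentage points lower than those outside them in siControl 4-cell embryos, and 10.0 points higher in siRif1 8-cell embryos. Against these short runs the sign was turned in siRif1 4-cell (-5.46 points) and siControl 8-cell embryos (-3.70), where deserts had been 7.48 and 12.02 points above all remaining bins. Just inside the length limit, the 104 deserts of exactly 5 bins were LAD in 59.2, 40.8, 50.6 and 66.5% of 520 bins in these 4 lists, and just outside it the runs of exactly 4 bins were LAD in 63.6, 44.8, 61.0 and 71.7% of 420 bins. A comparison chosen after the data were seen took bins wholly inside a protein-coding gene of 500 kb or more, with no other protein-coding gene. Of these 1546 bins, 63.5% were LAD in siRif1 4-cell, 44.0% in siControl 4-cell, 58.3% in siRif1 8-cell and 64.4% in siControl 8-cell embryos. When genes of every biotype, noncoding ones included, ended a desert, 142 deserts of 917 bins remained, and they were LAD less often than the other bins in siRif1 4-cell (-9.56 points) and siControl 8-cell embryos (-8.64) as well.

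Length separated the lists. The 320 deserts of 0.5 to 0.9 Mb (5 to 9 bins) were LAD in 59.9% of their 2065 bins in siRif1 4-cell, 39.4% in siControl 4-cell, 60.3% in siRif1 8-cell and 67.6% in siControl 8-cell embryos. The 155 deserts of 1 to 1.9 Mb were LAD in 53.1, 20.8, 61.9 and 57.4% of 2045 bins. The 71 deserts of 2 Mb or more, with a median of 2.7 Mb, were LAD in 33.9, 7.88, 55.4 and 35.5% of 2006 bins. Coverage of the longest class was below that of the shortest in all 4 lists, by 26.0 points in siRif1 4-cell, 31.5 in siControl 4-cell, 4.86 in siRif1 8-cell and 32.0 in siControl 8-cell embryos. Over the 546 deserts, Spearman's rho between length and coverage was -0.15, -0.20, 0.0076 and -0.21, given as a description of deserts that share their lists and chromosomes.

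**Figure D1:**
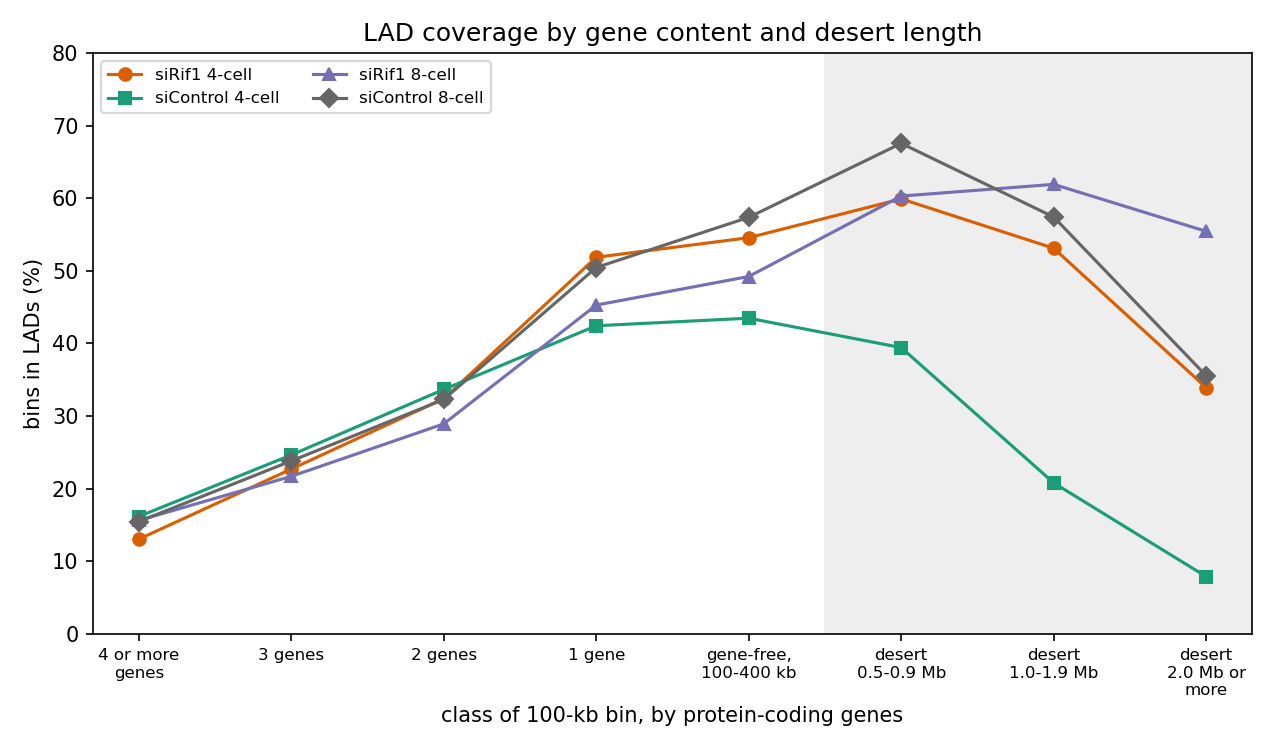
Percent of 100-kb bins in LADs (y axis) for 8 classes of bin (x axis), ordered by the number of protein-coding genes that overlap the bin and then by the length of the gene-free run, with 1 line per LAD list and deserts shaded grey. The 4 lines lie close together in bins with 2 or more genes and spread over the deserts of 2 Mb or more, where they reach 55.4% in siRif1 8-cell and 7.88% in siControl 4-cell embryos.

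With more genes per bin the lists came together. Bins with 2 protein-coding genes were LAD in 32.4% of cases in siRif1 4-cell, 33.7% in siControl 4-cell, 28.9% in siRif1 8-cell and 32.3% in siControl 8-cell embryos, and bins with 4 or more genes in 13.03, 16.2, 15.6 and 15.5%. The order of the 4 lists in long deserts was therefore not their order in gene-dense bins. Read depth, mappability and the density of GATC sites over whole deserts could not be measured from the lists, and their part in these values was not tested.

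Within deserts of 2 Mb or more, coverage fell from the edge inward in siRif1 4-cell, siControl 4-cell and siControl 8-cell embryos. In siRif1 8-cell embryos it stayed at 57.0 to 62.7% over the first 0.9 Mb and was lower only deeper in. In the 71 deserts of 2 Mb or more, the edge bin was LAD in 49.3% of cases in siRif1 4-cell, 23.2% in siControl 4-cell, 59.2% in siRif1 8-cell and 48.6% in siControl 8-cell embryos (142 bins). The tenth bin from the edge was LAD in 28.2, 1.41, 53.5 and 35.9%. Beyond it, at 1 Mb or more from both edges, 24.6, 1.19, 45.9 and 22.7% of 586 bins were LAD. Longer deserts give more of these bins, so depth and desert length are mixed there. In siControl 4-cell embryos the decline began outside the desert, since bins 0.6 to 1 Mb before the edge were LAD in 36.2 to 40.4% of cases and the bin next to the edge in 23.9%. In siRif1 8-cell embryos the bins just inside (59.2 to 62.7% over the first 5) were LAD more often than those just outside (50.4 to 57.0% over the 5 next to the edge).

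In deserts of 1 to 1.9 Mb the slope from the edge inward was similar in siControl 4-cell embryos and shallower in siRif1 4-cell and siControl 8-cell embryos. From the edge bin to the fifth bin, coverage was 55.5 to 49.7% in siRif1 4-cell, 31.6 to 17.4% in siControl 4-cell, 59.0 to 64.5% in siRif1 8-cell and 60.0 to 56.8% in siControl 8-cell embryos (310 bins each). In deserts of 0.5 to 0.9 Mb the edge bin and the third bin were LAD in 58.6 and 61.0% of cases in siRif1 4-cell, 40.2 and 40.9% in siControl 4-cell, 56.9 and 61.8% in siRif1 8-cell and 65.2 and 69.0% in siControl 8-cell embryos.

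**Figure D2:**
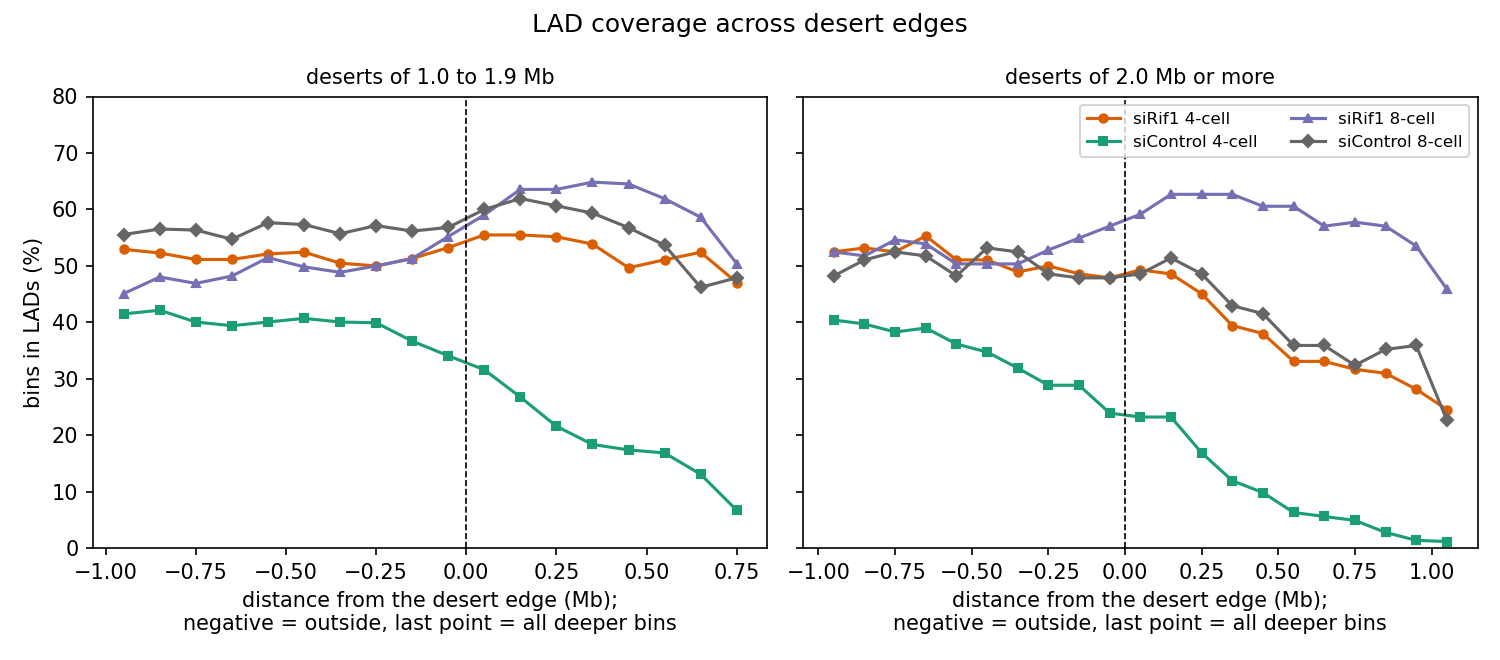
Percent of bins in LADs (y axis) by distance from the nearest desert edge in Mb (x axis; dashed line, the edge; negative, outside the desert) for deserts of 1 to 1.9 Mb (left) and of 2 Mb or more (right), with 1 line per LAD list. In the longer class the siControl 4-cell line falls to 1.19% in the deepest bins and the siRif1 8-cell line stays highest, at 45.9%.

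The middle bin of a desert of 2 Mb or more was LAD in 21 of 71 deserts in siRif1 4-cell, 0 in siControl 4-cell, 39 in siRif1 8-cell and 23 in siControl 8-cell embryos. In siControl 4-cell embryos 40 of the 71 had no LAD bin at all, 29 had a LAD at an edge with the middle bin outside it, and none was wholly LAD. In siRif1 4-cell embryos 10 had none, 38 had a LAD at an edge with the middle bin outside LADs and 6 were wholly LAD. The 8-cell counts were 4, 24 and 13 in siRif1 and 6, 32 and 3 in siControl embryos. LAD borders inside these deserts numbered 114 in siRif1 4-cell, 41 in siControl 4-cell, 122 in siRif1 8-cell and 151 in siControl 8-cell embryos, so that in siControl 8-cell embryos LADs there were more broken up than in siRif1 8-cell embryos although they covered less.

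Over all lengths, 182 deserts (33.3%) were wholly LAD in siRif1 4-cell, 100 (18.3%) in siControl 4-cell, 202 (37.0%) in siRif1 8-cell and 215 (39.4%) in siControl 8-cell embryos. As a background, the span was cut into 2972 tiles of 8 bins, the median length of a desert, of which 26.7, 18.9, 26.6 and 27.2% were wholly LAD. Over all lengths the siControl 4-cell share was thus near its background, and the other shares were above theirs. The share depended on length, however, and the tiles are not matched to deserts in length. In siControl 4-cell embryos it was 27.5, 7.74 and 0% from the shortest to the longest class. In the longest class the other lists were below their tiles, at 8.45% (siRif1 4-cell), 18.3% (siRif1 8-cell) and 4.23% (siControl 8-cell). Deserts with no LAD bin numbered 119 (21.8%), 253 (46.3%), 111 (20.3%) and 84 (15.4%), against 38.9, 49.6, 36.7 and 35.8% of tiles.

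**Figure D3:**
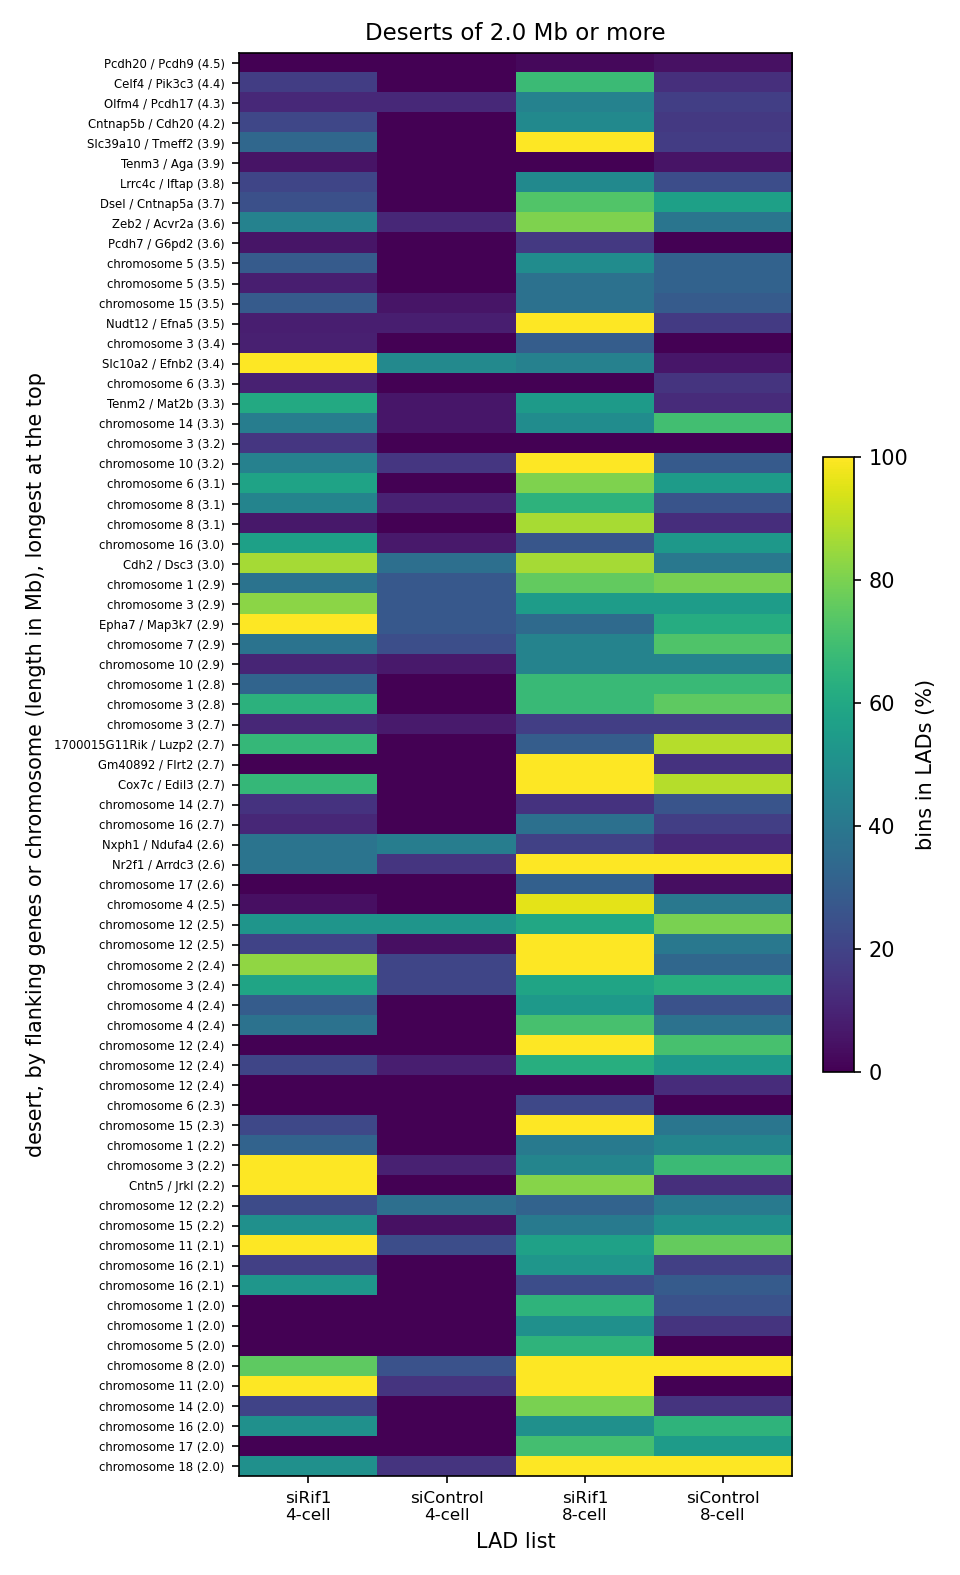
Percent of bins in LADs (colour) in each of the 71 deserts of 2 Mb or more (rows, longest at the top, with length in Mb, by chromosome or, for deserts described in the text by rule, by the protein-coding genes on each side) in the 4 LAD lists (columns). The siControl 4-cell column is dark in most rows, with 40 deserts at 0%, and 13 deserts reach 100% in the siRif1 8-cell column.

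Of the 71 deserts of 2 Mb or more, 38 had a gene of the neuronal families listed further on at a side. The longest of all, 4.5 Mb on chromosome 14 (88500001 to 93000000), separates Pcdh20 from Pcdh9, both protocadherin genes, and was almost wholly outside LADs, with 0% of its bins LAD in siRif1 4-cell, 0% in siControl 4-cell, 2.22% in siRif1 8-cell and 4.44% in siControl 8-cell embryos. The Gm41226 start window printed above lies near its middle and was LAD in none of the lists. The desert between Tenm3, which codes for a teneurin adhesion receptor, and Aga on chromosome 8 (49600001 to 53500000, 3.9 Mb) also stayed at or below 5.13%, at 5.13, 0, 0 and 5.13% in the same order of lists. The desert between the protocadherin gene Pcdh7 and G6pd2 on chromosome 5 (58200001 to 61800000) was at 5.56, 0, 16.7 and 0%, low in all lists and highest in siRif1 8-cell embryos.

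Other long deserts were covered most in siRif1 8-cell embryos. Between the zinc transporter gene Slc39a10 and Tmeff2 (chromosome 1, 47000001 to 50900000, 3.9 Mb), 33.3% of bins were LAD in siRif1 4-cell, 0% in siControl 4-cell, 100% in siRif1 8-cell and 17.9% in siControl 8-cell embryos. Between Celf4, an RNA-binding protein gene, and Pik3c3 (chromosome 18, 25800001 to 30200000, 4.4 Mb) the values were 18.2, 0, 68.2 and 13.6%. Between Cntnap5b, a contactin-associated protein gene, and the cadherin gene Cdh20 (chromosome 1, 100500001 to 104700000, 4.2 Mb) they were 21.4, 0, 47.6 and 16.7%. In each of these 3 the siRif1 8-cell value was the highest of the 4 and the siControl 4-cell value was 0.

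The remaining 4 of the 10 longest were also covered most in siRif1 8-cell embryos. Between Olfm4 and Pcdh17 (chromosome 14, 80100001 to 84400000) 11.6, 11.6, 44.2 and 18.6% of bins were LAD in siRif1 4-cell, siControl 4-cell, siRif1 8-cell and siControl 8-cell embryos. Between the synaptic adhesion gene Lrrc4c and Iftap (chromosome 2, 97700001 to 101500000) the values were 21.1, 0, 47.4 and 23.7%. Between Dsel and Cntnap5a (chromosome 1, 111900001 to 115600000) they were 24.3, 0, 73.0 and 56.8%, and between Zeb2, a zinc finger regulator of neural crest and neuronal development, and the activin receptor gene Acvr2a (chromosome 2, 45200001 to 48800000) 44.4, 11.1, 80.6 and 38.9%. All 4 were highest in siRif1 8-cell embryos, and lowest in siControl 4-cell embryos except for a tie at Olfm4.

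Constant deserts were mostly short, but so were deserts as a whole, with a median of 0.8 Mb. A short run is also more easily in 1 state throughout, and the shares below were not matched for length. Of the 546 deserts, 45 (8.24%) were wholly LAD in all 4 lists, with a median length of 0.6 Mb, and 30 (5.49%) were outside LADs in all 4, against 6.86 and 18.7% of tiles. The longest that were LAD throughout lay between Auts2, a neurodevelopmental gene, and Castor2 (chromosome 5, 132600001 to 134000000, 1.4 Mb), between Gm4868 and Tmem132c (chromosome 5, 125900001 to 127200000) and between Camk1g, a calcium-dependent kinase gene, and the semaphorin receptor gene Plxna2 (chromosome 1, 193400001 to 194600000). The longest that were never LAD lay between Pcdh9 and Spertl (chromosome 14, 93900001 to 95800000, 1.9 Mb), between Plekhb2 and Hs6st1 (chromosome 1, 34900001 to 36000000) and between Gm51483 and the imprinted gene Ndn (chromosome 7, 61200001 to 62300000).

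The states of deserts combined in many ways across the lists. With a desert counted for a list where 50% or more of its bins were LAD, 102 deserts (18.7%) counted in all 4 lists and 97 (17.8%) in none, against 18.8 and 33.3% of tiles. A further 89 (16.3%) counted in every list but siControl 4-cell, against 8.71% of tiles, and 50 (9.16%) in siRif1 8-cell alone, against 5.75%. The mirror case, siControl 4-cell alone, held 3 deserts (0.549%), against 3.06% of tiles. Among the 71 deserts of 2 Mb or more, 22 counted in none, 18 in siRif1 8-cell alone, 9 in every list but siControl 4-cell and 1 in all 4.

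At the 4-cell stage, deserts were LAD more often after Rif1 depletion. Coverage was 49.1% in siRif1 and 22.8% in siControl embryos, a difference of 26.3 percentage points, against 5.19 points in the remaining bins. Bins inside genes of 500 kb or more also differed, by 19.4 points, and gene-free runs of 1 to 4 bins by 11.1. Bins LAD in siRif1 and not in siControl 4-cell embryos (LAD in siRif1 alone, of this pair) made up 29.1% of desert bins (1782 bins), against 17.1% of all bins of the span, and bins LAD in siControl alone 2.88% (176 bins), against 6.51%. Deserts made up 25.6% of the span and held 43.7% of all bins LAD in siRif1 alone and 11.3% of those LAD in siControl alone. Of the bins outside siControl LADs, 37.8% in deserts and 20.4% in the remaining bins were LAD in siRif1. Of the bins LAD in siControl, 12.6% in deserts and 21.3% in the remaining bins were outside LADs in siRif1. The difference was above 0 on 18 of 19 chromosomes, from -3.78 points on chromosome 17 to 60.1 on chromosome 9, with a mean of 26.0 ± 13.7 (SD, 19 chromosomes) against 4.87 ± 5.94 in the remaining bins.

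By length the 4-cell difference was 20.5 points in deserts of 0.5 to 0.9 Mb, 32.3 in those of 1 to 1.9 Mb and 26.0 in those of 2 Mb or more. The deserts with most bins LAD in siRif1 alone were those between the contactin gene Cntn5 and Jrkl (chromosome 9, 11000001 to 13200000, 2.2 Mb, 100% in siRif1 and 0% in siControl), between the ephrin receptor gene Epha7 and the kinase gene Map3k7 (chromosome 4, 29000001 to 31900000, 2.9 Mb, 100 and 27.6%) and between the teneurin gene Tenm2 and Mat2b (chromosome 11, 37300001 to 40600000, 3.3 Mb, 60.6 and 6.06%). The last of these, with 20 such bins, was tied with the shorter desert between Fstl5 and Rapgef2 (100 and 9.09%). The rule on ties by length passed over that desert. At the 8-cell stage the Cntn5 desert was also LAD in 81.8% of bins in siRif1 and 13.6% in siControl embryos. The deserts with most bins LAD in siControl alone at the 4-cell stage were shorter. They lay between Rgmb and Gm51425 (chromosome 17, 15900001 to 17000000, 0% in siRif1 and 81.8% in siControl), between Wac and the Wnt receptor gene Fzd8 (chromosome 18, 8000001 to 9200000, 33.3 and 100%) and between the cadherin gene Cdh26 and 4930591A17Rik (chromosome 2, 178500001 to 179400000, 11.1 and 100%). The last pair had 8 such bins each, as did the shorter desert between Tafa5 and Zdhhc25 (0 and 100%).

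At the 8-cell stage the difference depended on length. Over all deserts coverage was 59.2% in siRif1 and 53.7% in siControl embryos, 5.58 points higher, whereas in the remaining bins siRif1 was lower, at -4.36 points, as it was inside genes of 500 kb or more (-6.08) and in gene-free runs of 1 to 4 bins (-8.15). In deserts of 0.5 to 0.9 Mb the difference was -7.26 points, in those of 1 to 1.9 Mb it was 4.50 and in those of 2 Mb or more 19.9. Bins LAD in siRif1 alone made up 19.5% of desert bins (1191), against 11.4% of the span. Bins LAD in siControl alone made up 13.9% (850), near the 13.3% of the span. Of the bins LAD in siControl, 25.9% in deserts and 31.3% in the remaining bins were outside LADs in siRif1. Over chromosomes the difference was above 0 on 15 of 19, with a mean of 3.60 ± 13.4, and ran from -28.6 on chromosome 7 to 23.9 on chromosome 11. The mean is small beside this spread, and the difference in deserts was above that in the remaining bins on 17 chromosomes.

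The deserts with most bins LAD after Rif1 depletion and outside LADs in controls were those of Slc39a10 and Celf4 described above and the one between Nudt12 and Efna5, an ephrin ligand gene (chromosome 17, 59100001 to 62600000, 3.5 Mb), which was LAD in 100% of bins in siRif1 and 17.1% in siControl embryos. In the other direction stood the desert between 1700015G11Rik and Luzp2 (chromosome 7, 52100001 to 54800000, 29.6% in siRif1 and 88.9% in siControl), that between Slitrk1 and Slitrk6, which code for neuronal transmembrane proteins (chromosome 14, 109000001 to 110700000, 17.6 and 82.4%), and the Epha7 desert (34.5 and 62.1%), whose 11 such bins were tied with those of 3 shorter deserts. The Epha7 desert had the opposite order at the 4-cell stage.

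**Figure D4:**
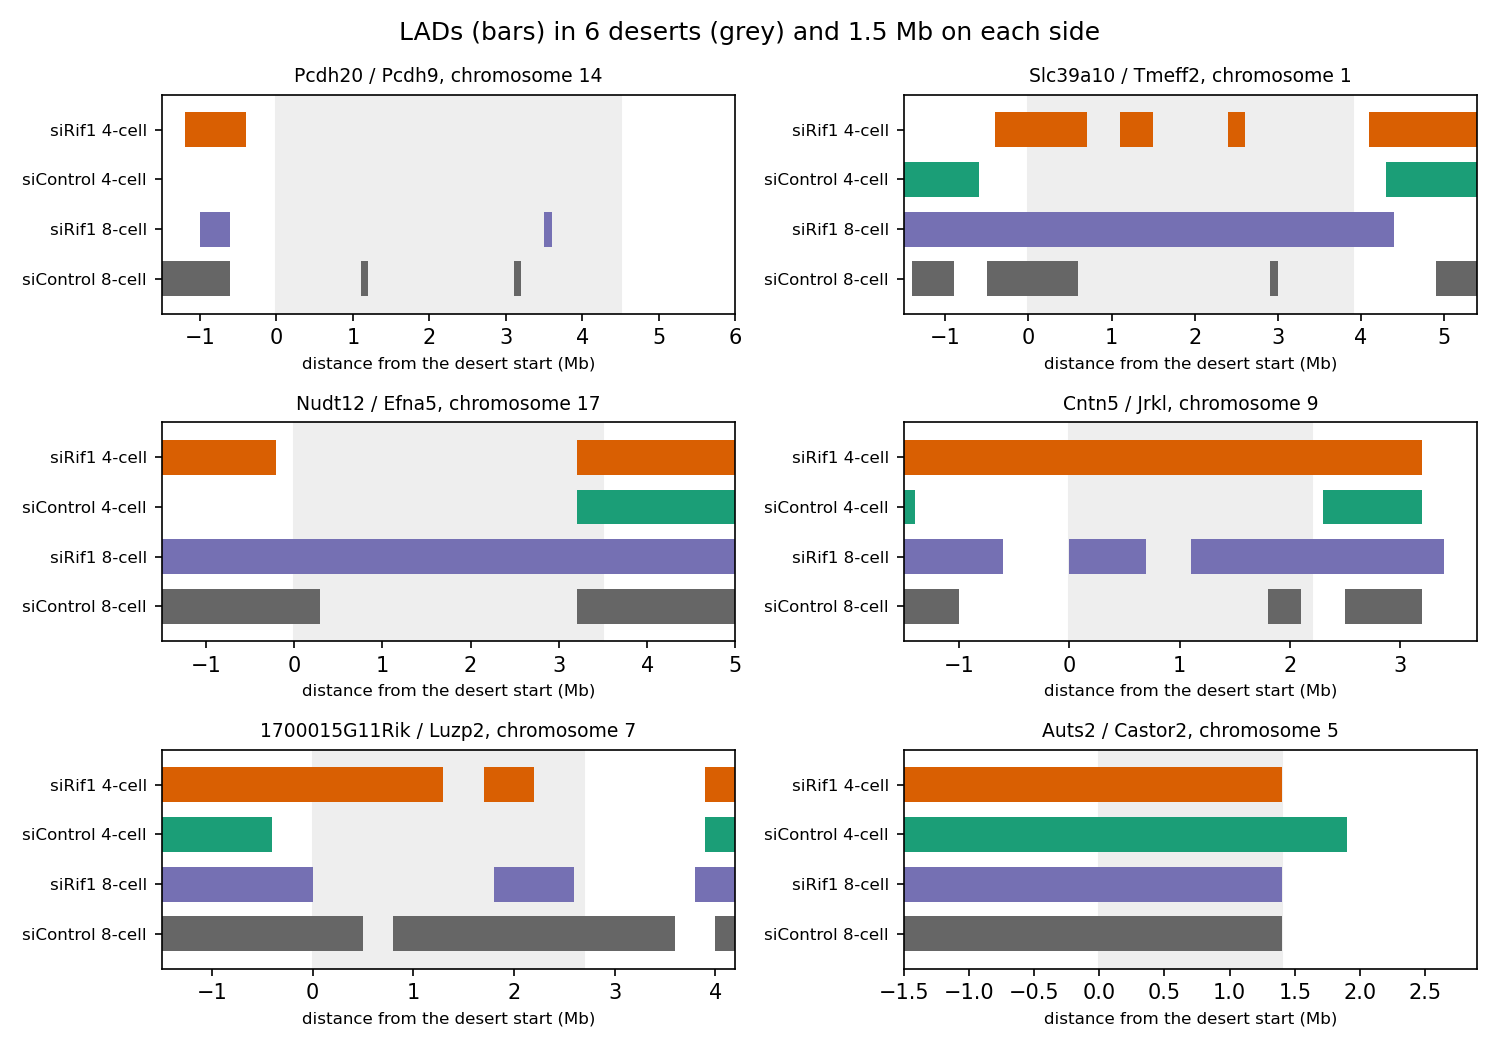
LADs (bars) of the 4 lists (rows) in 6 deserts (grey) and 1.5 Mb on each side, by distance from the start of the desert in Mb (x axis). The Pcdh20 desert is almost free of LADs, and the Slc39a10 and Nudt12 deserts are bridged by 1 LAD in siRif1 8-cell embryos. The Cntn5 desert is covered at 100% in siRif1 4-cell and at 81.8% in siRif1 8-cell embryos. The Luzp2 desert is covered most in siControl 8-cell embryos, at 88.9%, and the Auts2 desert is LAD in all 4 lists.

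In control embryos, desert coverage was 53.7% at the 8-cell and 22.8% at the 4-cell stage, a difference of 30.8 points, against 5.22 points in the remaining bins, 20.4 inside genes of 500 kb or more and 13.9 in gene-free runs of 1 to 4 bins. Bins LAD at the 8-cell stage alone made up 33.9% of desert bins (2076), against 20.3% of the span. Those LAD at the 4-cell stage alone made up 3.12% (191), against 8.52%. Of the bins LAD at the 4-cell stage, 13.7% in deserts and 28.5% in the remaining bins were outside LADs at the 8-cell stage. The difference in coverage was above 0 on 19 of 19 chromosomes (mean 30.9 ± 10.8). It was 28.1 points in deserts of 0.5 to 0.9 Mb, 36.6 in those of 1 to 1.9 Mb and 27.7 in those of 2 Mb or more. Beside the Luzp2 desert (88.9% at the 8-cell and 0% at the 4-cell stage), the most bins were LAD at the 8-cell stage alone between Cox7c and Edil3 (chromosome 13, 86100001 to 88800000, 88.9 and 0%) and between the nuclear receptor gene Nr2f1, a regulator of neural development, and Arrdc3 (chromosome 13, 78200001 to 80800000, 100 and 15.4%). Most bins LAD at the 4-cell stage alone were found between Slc10a2 and the ephrin ligand gene Efnb2 (chromosome 8, 5200001 to 8600000, 5.88% at the 8-cell and 47.1% at the 4-cell stage), between Nxph1 and Ndufa4 (chromosome 6, 9300001 to 11900000, 11.5 and 42.3%) and between the cadherin genes Cdh2 and Dsc3 (chromosome 18, 16900001 to 19900000). In the last of these, 40% of bins at the 8-cell and 36.7% at the 4-cell stage were LAD, so that its total was higher at the 8-cell stage although 7 bins were LAD at the 4-cell stage alone. Shorter deserts tied with it at 7 bins were those between Etaa1 and Meis1 (12.5% at the 8-cell and 100% at the 4-cell stage) and between Sall1 and Tox3 (0 and 63.6%).

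In Rif1-depleted embryos the stages were closer. Desert coverage was 59.2% at the 8-cell and 49.1% at the 4-cell stage, 10.1 points apart, against -4.34 points in the remaining bins, -5.11 inside genes of 500 kb or more and -5.35 in gene-free runs of 1 to 4 bins. By length the difference was 0.387, 8.80 and 21.5 points, from the shortest to the longest class. Bins LAD at the 8-cell stage alone made up 22.9% of desert bins (1399), against 13% of the span. Those LAD at the 4-cell stage alone made up 12.7% (779), near the 13.6% of the span. Of the bins LAD at the 4-cell stage, 25.9% in deserts and 33.5% in the remaining bins were outside LADs at the 8-cell stage. The difference in coverage was above 0 on 11 of 19 chromosomes, with a mean of 8.49 ± 14.9 that is smaller than the spread. The Nudt12 desert (100% at the 8-cell and 8.57% at the 4-cell stage), that between Gm40892 and the adhesion gene Flrt2 (chromosome 12, 92900001 to 95600000, 100 and 0%) and the Slc39a10 desert (100 and 33.3%) had most bins LAD at the 8-cell stage alone. The Slc10a2 desert (44.1 and 100%), the Epha7 desert (34.5 and 100%) and that between Marcks and Rfpl4b (chromosome 10, 37200001 to 38800000, 0 and 100%) had most LAD at the 4-cell stage alone. The comparisons share lists with each other, so their values stand side by side and are not independent.

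**Figure D5:**
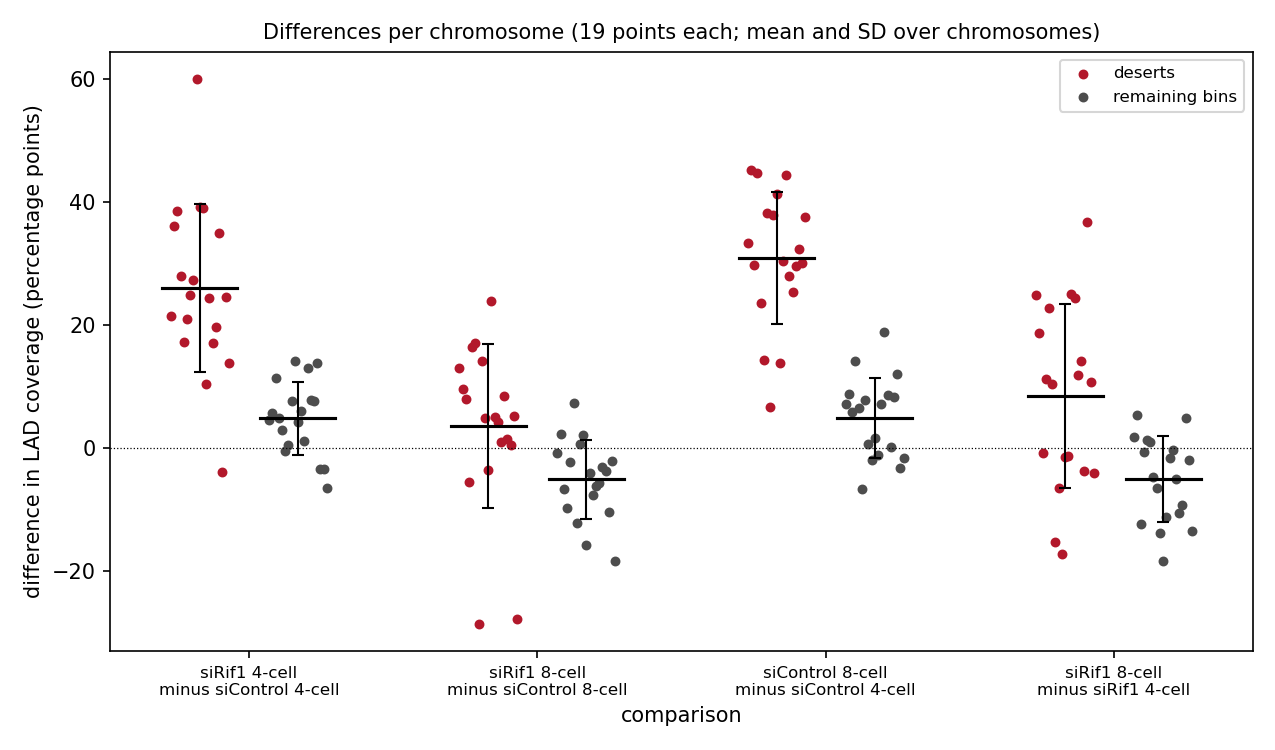
Difference in LAD coverage in percentage points (y axis) for the 4 comparisons (x axis), in deserts (red) and in the remaining bins (grey), with 1 point per chromosome and the mean and SD over the 19 chromosomes. Desert points lie above 0 on 18 chromosomes for siRif1 minus siControl at the 4-cell stage and on 19 for 8-cell minus 4-cell controls, and spread on both sides of 0 in the other 2 comparisons.

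The genes on either side of a desert were taken as the nearest protein-coding gene before and after it. Gene groups were drawn up by symbol, as families and some single genes, with earlier results of these data known. Their members were not checked for where they act, so the shares below describe these lists alone. Of 240 genes in a list of neuronal adhesion, synapse, channel and guidance families, 89 (37.1%) flanked a desert and 39 (16.2%) flanked one of 2 Mb or more, against 967 (4.80%) and 135 (0.670%) of all 20140 protein-coding genes. Of 208 developmental transcription factor genes, 58 (27.9%) flanked a desert and 4 (1.92%) one of 2 Mb or more. They include Zeb2, Nr2f1 and Gata3, a regulator of trophectoderm and T cells. None of 1444 olfactory and vomeronasal receptor genes flanked a desert, while 11 of 350 zinc finger genes and 7 of 170 ribosomal protein, proteasome and complex I genes did.

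The neuronal genes beside deserts were themselves LAD less often than all flanking genes, which include them, in all 4 lists. The gap was wider at the 4-cell than at the 8-cell stage and smallest in siRif1 8-cell embryos. By the position of the gene's midpoint, 32 of the 89 (36.0%) were LAD in siRif1 4-cell, 16 (18.0%) in siControl 4-cell, 46 (51.7%) in siRif1 8-cell and 41 (46.1%) in siControl 8-cell embryos. Of all 967 flanking genes 55.0, 40.3, 54.0 and 56.5% were LAD, and of all protein-coding genes 24, 24.7, 24.2 and 26.3%. Of the 58 developmental regulators, 33 (56.9%), 24 (41.4%), 31 (53.4%) and 38 (65.5%) were LAD, within 2 points of all flanking genes in the first 3 lists and above them in siControl 8-cell embryos. Of the 39 neuronal genes beside deserts of 2 Mb or more, 14, 4, 18 and 17 were LAD. Of all 135 genes beside such deserts, which include these, 67, 35, 76 and 68 were LAD. Such long deserts were flanked by 39 of the 89 neuronal genes and by 135 of all 967 flanking genes. The shares of the 89 and the 967 are thus not matched for desert length. Cdh2, the neural cadherin gene, the teneurin gene Tenm4 and the latrophilin gene Adgrl2 were LAD in all 4 lists. The kainate receptor gene Grik2 and the cadherin genes Cdh8 and Cdh11 were among those LAD in siRif1 8-cell embryos alone, and Pcdh9, Pcdh17 and Lrrc4c among those LAD in none.

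Deserts with a neuronal gene on a side were longer (median 1.3 Mb, 115 deserts) than those with none of the listed families on either side (0.8 Mb, 351 deserts). Within the class of 2 Mb or more, the 38 with a neuronal gene were LAD in 26.8% of bins in siRif1 4-cell, 5.39% in siControl 4-cell, 50.8% in siRif1 8-cell and 29.3% in siControl 8-cell embryos, and the 27 with none of the families in 44.9, 10.2, 60 and 43.5%. In the class of 0.5 to 0.9 Mb the values were 41.9, 23.6, 58.8 and 60.1% for 44 deserts with a neuronal gene and 65.3, 41.2, 61.4 and 69.0% for 220 without. Coverage was lower beside neuronal genes in both classes and in all 4 lists. The 46 deserts of 0.5 to 0.9 Mb with a developmental regulator on a side were LAD in 53.9, 49.0, 60.9 and 72.4% of bins.

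Of the 112 microRNA genes in deserts, 40 (35.7%) were LAD in siRif1 4-cell, 15 (13.4%) in siControl 4-cell, 35 (31.2%) in siRif1 8-cell and 69 (61.6%) in siControl 8-cell embryos. Outside deserts 17.3, 19.3, 16.3 and 18.4% of microRNA genes were LAD, and of all desert bins 49.1, 22.8, 59.2 and 53.7%. A single locus set the last count, since 39 microRNA genes between Rtl1 and Dio3, the imprinted cluster that includes Mir379 (chromosome 12, 109709060 to 109747960), were LAD in siControl 8-cell embryos alone. A further 13, the Mir344 family between Gm51483 and Ndn (chromosome 7, 61683124 to 62085310), were LAD in no list. Without these clusters, 60 microRNA genes remained, of which 40, 15, 35 and 30 were LAD.

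The let-7 family, which promotes differentiation, and its cluster partners sit in deserts at 2 loci. Mir99a, Mirlet7c-1 and Mir125b-2 lie between Usp25 and Cxadr (chromosome 16, 77598936 to 77646343) and were LAD in siRif1 4-cell embryos alone. Mir100, Mirlet7a-2 and Mir125b-1 lie between Ubash3b and Gm40514 (chromosome 9, 41531425 to 41582002) and were LAD in siRif1 4-cell and siControl 8-cell embryos. The loci share the miR-125b-5p sequence printed above, and miR-99a-5p and miR-100-5p share the seed ACCCGUA. Mir9-2, a neural microRNA gene in the desert between Mef2c and Tmem161b (chromosome 13), was LAD in siRif1 8-cell embryos alone. Mir137 (chromosome 3, between Snx7 and Dpyd) was LAD in none of the lists. Its desert was nonetheless mostly LAD, in 66.7% of bins in siRif1 4-cell, 66.7% in siControl 4-cell, 83.3% in siRif1 8-cell and 66.7% in siControl 8-cell embryos. Mir181a-1 and Mir181b-1 (chromosome 1, 137966455 to 137966718), whose products share the seed ACAUUCA, and the epithelial Mir205 in the Plxna2 desert were LAD in all 4.

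Noncoding genes in deserts differed from the desert bins by kind. Of 1852 lncRNA genes with the midpoint in a desert, 1056 (57.0%) were LAD in siRif1 4-cell, 718 (38.8%) in siControl 4-cell, 1060 (57.2%) in siRif1 8-cell and 1132 (61.1%) in siControl 8-cell embryos. In siControl 4-cell embryos this is above the 22.8% of all desert bins. Spearman's rho between lncRNA genes per Mb and coverage over the 546 deserts was 0.26 in that list. It was 0.066, -0.067 and 0.049 in the siRif1 4-cell, siRif1 8-cell and siControl 8-cell lists. These values were not matched for desert length. The shortest class of desert held 860 of the 1647 lncRNA start windows in deserts, but 2065 of the 6116 desert bins. In siControl 4-cell embryos that class was LAD in 39.4% of its bins and the longest class in 7.88%. The part of desert length in the lncRNA values was not tested. For the 1669 pseudogenes in deserts the shares were 50.0, 24.6, 57.2 and 57.2%, near those of the bins. Of the 515 antigen receptor segments in deserts, which lie in only 3 loci, 83 (16.1%) were LAD in siRif1 4-cell, 0 in siControl 4-cell, 123 (23.9%) in siRif1 8-cell and 114 (22.1%) in siControl 8-cell embryos, against 55.6, 36.4, 56.3 and 67.5% of the segments outside deserts. The heavy chain desert (chromosome 12, 113600001 to 116000000) was LAD in 0% of bins in siRif1 4-cell, siControl 4-cell and siRif1 8-cell embryos and in 12.5% in siControl 8-cell embryos.

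The start windows gave the base composition at 1647 lncRNA starts in deserts. These windows averaged 44.3% ± 6.67 G and C (SD over windows), against 50.2% ± 9.42 at 9555 lncRNA starts outside deserts, and 45.5, 43.4 and 42.0% from the shortest to the longest class of desert. GATC, the same on both strands, was present in 833 of the desert windows (50.6%), in 50.2% of the lncRNA windows outside deserts and in 47.7% of all 30836 windows of the span. Within deserts, 50.4% of the windows LAD in siControl 4-cell embryos and 50.7% of those outside its LADs held a GATC, and in siRif1 8-cell embryos 53.0 and 47.6%. Windows at gene starts are a small sample of a desert, and the count says nothing of the sites elsewhere in it.

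Along the chromosome, desert coverage differed by position in different ways. Mouse chromosomes carry the centromere at the low end of the coordinates. Deserts centred in the first 40 Mb (162) were LAD in 56.4% of bins in siRif1 4-cell, 26.1% in siControl 4-cell, 51.6% in siRif1 8-cell and 49.0% in siControl 8-cell embryos. Those between 40 and 80 Mb (187) were LAD in 42.5, 17.7, 58.9 and 51.6%, and those between 80 and 120 Mb (142) in 45.0, 20.2, 62.7 and 53.5%. Those beyond 120 Mb (55), which only the longer chromosomes have, were LAD in 64.8, 41.2, 74.5 and 78.1%. The siControl 4-cell value was the lowest of the 4 in each of these zones.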

How the data were processed

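Lamina contacts were measured by DamID in 12 samples (4 groups of 3 replicates), per the labels. The submitters' processing notes name Trimmomatic, Bowtie2, SAMtools and Picard as tools and mm10 (GRCm38) as the build. How LADs were called, and whether free Dam was corrected for, is not given in the sources used here. The authors deposited 1 LAD list per group, made from all replicates per the series' design text, with starts and ends on a 100-kb grid and a score field of 0 that was not used. Read depth is unknown, so no counting error of the reads is given.

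Bins were scored with Python 3.11.15, numpy 2.4.6 and pandas 2.3.3. Gene bodies came from the RefSeq table of GRCm38.p6, without 333 of 47038 entries with scaffold coordinates, which left 20554 protein-coding genes. No genome was used, so composition was read at gene starts alone. The desert and overlap steps were tested on simulated data. Deserts, lists and gene groups were chosen with earlier results of these data known. Named deserts are the 10 longest, the 3 longest in all or no lists, and the 3 with most differing bins per comparison and direction. Alternatives were longer deserts, genes of any biotype, short LADs of under 300 kb left out, LAD gaps bridged up to 200 kb, other comparison bins and each chromosome left out. Some genes and the deserts they flank are not reported here.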

Additional observations from a re-analysis of the deposited data

Results flagged for a closer look

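In deserts of 0.5 to 0.9 Mb the siRif1 minus siControl difference in LAD coverage had opposite signs at the 2 stages, 20.5 percentage points at the 4-cell and -7.26 points at the 8-cell stage. With 1 pooled list per group, the difference between the stages was not tested.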

How the results depend on the processing

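No paired analysis was possible because each group has 1 pooled list, and no replicate could be left out for the same reason. Leaving out bins with undetermined bases was not run, since no genome was used, and a bin's state by 50% overlap is the same on this grid. Leaving out short LADs, or the antigen receptor deserts (chosen after seeing the data), moved each of 24 values by less than the 95% binomial interval over its bins, used here as a yardstick alone. Bridging gaps changed no desert bin and so tests nothing about deserts. With each chromosome left out, desert coverage stayed at 47.6 to 50.3% in siRif1 4-cell, 22.3 to 23.4% in siControl 4-cell, 58.0 to 60.3% in siRif1 8-cell and 52.7 to 54.8% in siControl 8-cell embryos. The differences stayed at 25.0 to 27.3 and 4.82 to 6.83 points for siRif1 minus siControl at the 4-cell and 8-cell stages, and at 29.7 to 32.3 and 8.65 to 11.2 points for 8-cell minus 4-cell in siControl and siRif1 embryos.

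In deserts of 8 or more bins (304), coverage was 45.7% in siRif1 4-cell, 17.0% in siControl 4-cell and 49.8% in siControl 8-cell embryos. The siRif1 minus siControl difference was 28.7 points at the 4-cell and 9.62 at the 8-cell stage, and the 8-cell minus 4-cell difference 32.8 in siControl and 13.7 in siRif1 embryos. Bins LAD in siRif1 alone made up 30.8 and 22.1%, and in siControl alone 2.12 and 12.5%, at the 4-cell and 8-cell stages. Bins LAD at the 4-cell stage alone made up 2.17% in siControl embryos, and in siRif1 embryos 25.0% were LAD at the 8-cell and 11.3% at the 4-cell stage alone. Deserts minus the other bins gave 2.74 points in siRif1 4-cell, -19.8 in siControl 4-cell and 6.35 in siControl 8-cell embryos.

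In deserts of 10 or more bins (226), coverage was 43.6, 14.4 and 46.6% in the same 3 lists. The differences were 29.2 and 12.1 points for siRif1 minus siControl at the 4-cell and 8-cell stages and 15.1 for 8-cell minus 4-cell siRif1 embryos. Bins LAD in siRif1 alone made up 30.6 and 23.4%, and in siControl alone 1.38 and 11.3%. Bins LAD at the 4-cell stage alone made up 1.95% in siControl embryos, and in siRif1 embryos 25.8% were LAD at the 8-cell and 10.7% at the 4-cell stage alone. Deserts minus the other bins gave 0.065 points in siRif1 4-cell, -22.3 in siControl 4-cell, 19.02 in siRif1 8-cell and 2.23 in siControl 8-cell embryos.

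In the 142 deserts without a gene of any biotype, coverage was 34.4, 6.87 and 36.4% in siRif1 4-cell, siControl 4-cell and siControl 8-cell embryos. The siRif1 minus siControl difference at the 8-cell stage was 23.9 points and the 8-cell minus 4-cell difference in siRif1 embryos 26.0. Bins LAD in siRif1 alone made up 27.6 and 31.3%, and in siControl alone 0.109 and 7.42%, at the 4-cell and 8-cell stages. Between stages, 30.97% were LAD at the 8-cell and 1.42% at the 4-cell stage alone in siControl embryos, and 34.4 and 8.40% in siRif1 embryos. Deserts minus the other bins gave -9.56, -27.1, 18.1 and -8.64 points in siRif1 4-cell, siControl 4-cell, siRif1 8-cell and siControl 8-cell embryos, so the sign turned in the first and last of these.

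Against other bins, in the same order of 4 lists, deserts stood at -2.76, -19.6, 13.96 and 3.21 points relative to bins with 1 gene, at -5.46, -20.6, 10.0 and -3.70 relative to gene-free runs of 1 to 4 bins, and at -14.4, -21.2, 0.894 and -10.8 relative to bins inside genes of 500 kb or more, also chosen after seeing the data. Counting a desert as LAD at 50% or more of its bins gave 300, 154, 332 and 332 deserts. The causes were not tested.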
